A study of Mus musculus with 18 samples.

Results

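Mast cells of the mouse bone marrow were followed at embryonic day 18.5 (E18.5), at birth (P0) and in the adult, as 427 single cells sorted together with the other hematopoietic progenitors (HPs). A cell was taken as a mast cell when the deposited annotation put it in a cluster whose name begins with Mast and when at least 2000 unique molecular identifiers (UMIs, each standing for 1 captured transcript) had been counted in it. E18.5 gave 159 such cells, P0 gave 262 and the adult 6, of 3477, 6208 and 5985 HP cells in these libraries and of 56201 cells in the whole series. Every sample came from the bone marrow of C57B6/J mice without any treatment, as a pool of several animals, and the labels give the oldest stage only as adult. The progenitors were CD45+ cells that lacked lineage markers and carried c-Kit (Lineage-Kit+), so mast cells that had lost surface c-Kit were gated out. Fetal and newborn marrow came from the whole skeleton except the head without lysis of red cells, whereas adult marrow came from tibias, femurs, pelvis and spine with lysis. Each of the 3 stages was 1 library, so no difference between stages could be set against a spread between replicates, and all intervals below cover counting error only.

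Mast cells are granulocytes of the innate immune system that leave the marrow as progenitors and mature in tissues. Stem cell factor acting on the receptor KIT keeps them alive, the IgE receptor triggers the release of their granules, and the granules hold proteases and histamine bound to the proteoglycan serglycin. The proteases fall into chymases (Cma1, Mcpt4, Mcpt1, Mcpt2), tryptases (Tpsb2, Tpsab1, Tpsg1) and carboxypeptidase A3 (Cpa3), and mast cells of connective tissue and of mucosa are told apart by which chymases and tryptases they hold.

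The libraries were not independent of each other. The adult library held 375 cell barcodes that also occurred in the E18.5 HP library, 225 that occurred in the P0 library and 330 of the 560 barcodes of the first of 2 E16.5 HP libraries, and the E18.5 and P0 libraries had 83 in common, whereas the second E16.5 library shared 1 to 8 barcodes with any other HP library. Within the E18.5, P0 and adult HP libraries, sharing was more frequent among mast-named cells of low depth than among deeper ones or other HP cells. Of those under 2000 UMIs, 41 of 44 at E18.5 (93.2%), 208 of 272 at P0 (76.5%) and 288 of 315 in the adult (91.4%) carried a barcode found in another HP library. Above the minimum, 6 of 159 mast cells shared a barcode at E18.5 (3.77%), 1 of 262 at P0 (0.382%) and 3 of 6 in the adult. The same was true of 13.0% of the other HP cells from 2000 UMIs of the E18.5 library, of 0.479% in the P0 library and of 0.402% in the adult one. With the stromal libraries of the series 5 of the E18.5 mast cells, 6 of the P0 and none of the adult ones also shared a barcode. Of these, 4 at E18.5 and 6 at P0 shared none with another HP library and were kept where shared barcodes were left out. The shares of mast cells and the total counts of 2-fold genes are given with and without cells that shared a barcode with another HP library. Counts over single gene lists and shares of cells with a UMI include them. What caused the sharing was not tested.

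**Figure D1:**
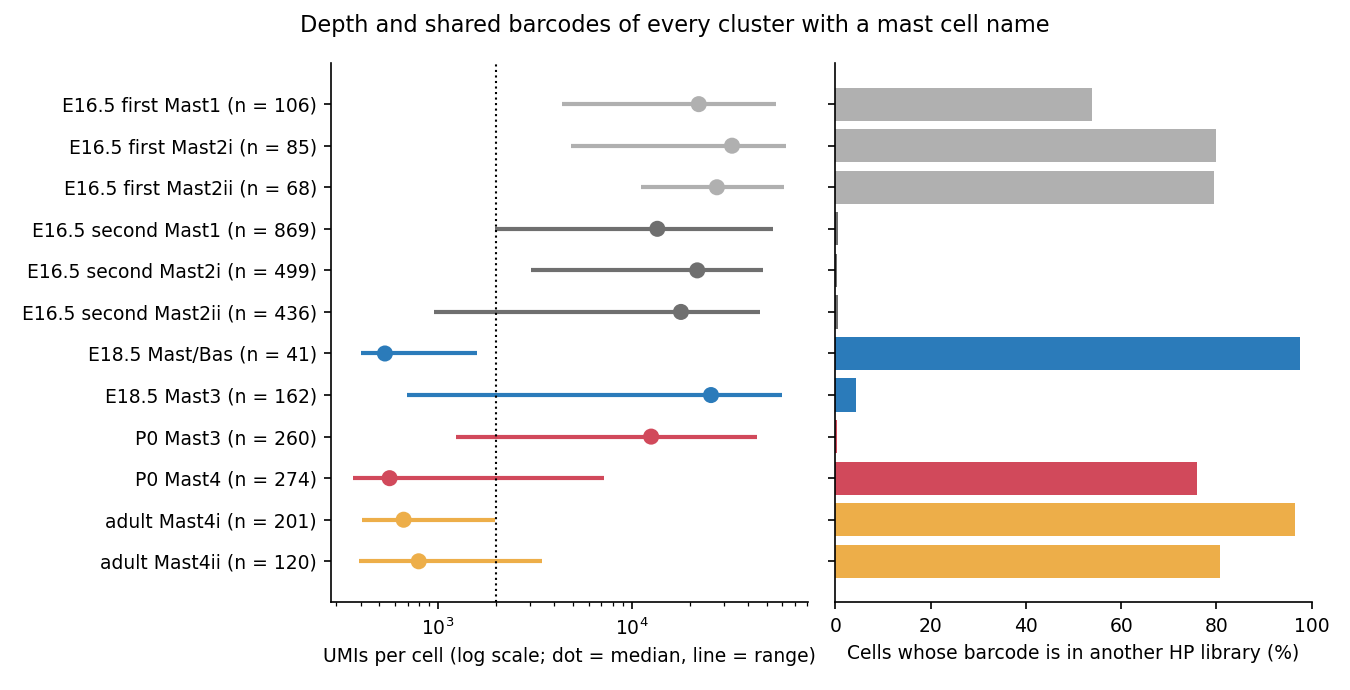
The mast-named clusters of each HP library, with the UMIs per cell (median and range, log axis) and the percentage of barcodes that also occurred in another HP library. The Mast3 clusters of E18.5 and P0 lay at high depth with few shared barcodes, whereas the E18.5 Mast/Bas, P0 Mast4, adult Mast4i and adult Mast4ii clusters had medians of 534 to 798 UMIs and shared 75.9% to 97.6% of their barcodes.

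The 427 cells came almost entirely from one cluster in each of the fetal and newborn libraries. At E18.5 all 159 belonged to Mast3 (162 cells in all), and none of the 41 cells of Mast/Bas reached 2000 UMIs. At P0, 259 belonged to Mast3 (260 cells) and 3 to Mast4 (274 cells). In the adult none of the 201 cells of Mast4i and 6 of the 120 cells of Mast4ii reached the minimum. Between E18.5 and P0 the comparison was therefore in effect one between the Mast3 clusters. Among the 10 genes with the highest fold over the rest of the library, Mast3 held 2 mast cell markers at E18.5 and 1 at P0 and none of another cell type, and the others of those genes included the proteases Mcpt1, Cma2 and Tpsg1. P0 Mast4 had 5 stromal markers against 3 of mast cells, led by the collagens Col3a1 and Col1a1, and adult Mast4ii had 4 macrophage markers, led by C1qc and C1qb, against 2 of mast cells. The stromal lead of P0 Mast4 rested on few cells for Col1a1, the only stromal marker counted by cell. Col1a1 had 17 UMIs in 3 of its cells with a shared barcode and 38 UMIs in 1 cell without, while Cma1 had a UMI in 136 of 208 and in 18 of 66 cells. At the UMI minimum the members just inside had 2164, 4888 and 5175 UMIs at E18.5, 2014, 3332 and 3443 at P0 and 2041, 2148 and 2372 in the adult. The mast-named cells just outside had 1876, 1588 and 1417, then 1904, 1789 and 1725, and then 1986, 1830 and 1693.

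E18.5 mast cells held 4197961 UMIs in all, P0 mast cells 3934395 and the adult cells 15143. A median E18.5 mast cell had 25820 UMIs (range 2164 to 59470), a median P0 cell 12579.5 (range 2014 to 44569) and a median adult cell 2467 (range 2041 to 3438). The other HP cells had medians of 23011, 20509 and 10202 UMIs. Median mitochondrial content of the mast cells was 2.83%, 3.22% and 4.32%. Levels are given as CPM, the UMIs of a gene over the summed cells of a group, scaled to a total of 1000000.

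Of the HP cells from 2000 UMIs, 6.43% were mast cells at E18.5 (exact binomial 95% interval 5.50% to 7.48%). The share was 4.44% (3.93% to 5.00%) in the P0 library and 0.134% (0.0491% to 0.291%) in the adult one. These intervals treat the cells of 1 pool as independent and say nothing of the spread between pools, so no difference between the stages is called from them. Without shared barcodes the shares were 7.07% and 4.45% at the earlier stages. The 3 adult cells then left (0.0672%) had no UMI of Cma1, Cpa3 or Tpsb2, so their transcripts go against the mast name. With every HP cell counted, at any depth, the mast-named shares were 5.84%, 8.60% and 5.36%, and the order of E18.5 and P0 turned round. These are shares of a c-Kit gate of a single pool per stage, so the abundance in the marrow cannot be told apart from the gate.

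The 6 adult cells were of different kinds. In 3 of them, Cma1 had 40, 26 and 42 UMIs, Cpa3 had 11, 14 and 16, and Tpsb2 had 10, 9 and 8, and each of these barcodes also occurred in the E18.5 and P0 HP libraries. The other 3 shared no barcode and had no UMI of Cma1, Cpa3 or Tpsb2. Instead they had 15, 1 and 4 UMIs of the complement gene C1qa and 67, 19 and 15 UMIs over the macrophage markers. None of the 6 thus carried these 3 proteases under a barcode found in the adult library alone. At any depth, adult mast-named cells without a shared barcode had a Cma1 UMI in 7 of 7 (Mast4i) and 4 of 23 (Mast4ii). Of the 4929 Cma1 UMIs in the adult HP library, 96.0% lay under shared barcodes, 108 in the 6 cells and 58 in the other HP cells from 2000 UMIs. The share under shared barcodes in the adult library was 97.5% for Tpsb2, 97.0% for Mcpt4 and 36.3% for Cpa3. Of the 6049 Cpa3 UMIs there, 3797 lay in the other HP cells from 2000 UMIs. Over the same 4 genes it ran from 7.87% (Cma1) to 20.7% (Mcpt4) at E18.5 and from 2.06% (Cpa3) to 5.79% (Tpsb2) at P0. Summed, the 6 adult cells had 2708 CPM of Cpa3 (1943 to 3673), 7132 CPM of Cma1 (5851 to 8611) and 528 CPM of Kit (228 to 1041). Mcpt4 and Gzmb had no count in 15143 UMIs, for which the exact Poisson interval reaches 244 CPM. Counts of 2-fold genes are not read for this group.

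The marker genes set the mast cells apart from the other HPs at both earlier stages. The carboxypeptidase gene Cpa3 was at 6758 CPM (exact Poisson interval 6679 to 6837) at E18.5 and 8325 CPM (8235 to 8415) at P0, against 117 and 135 CPM in the other HPs. Cma1, of the chymase family, was at 7304 CPM (7222 to 7386) at E18.5 and 11903 CPM (11795 to 12011) at P0, against 6.57 and 64.1 CPM. Kit, the receptor for stem cell factor and part of the gate, was at 630 CPM (606 to 654) and 706 CPM (680 to 733), against 92.2 and 136 CPM. All 3 markers were thus higher in mast cells than in the cells sorted beside them, Cpa3 by 57.9-fold and 61.9-fold and Kit by 6.83-fold and 5.20-fold. The annotation was made from the same transcripts, so these contrasts describe the cluster and test nothing. From E18.5 to P0 the level was 1.23-fold (1.21 to 1.25) for Cpa3, 1.63-fold (1.61 to 1.65) for Cma1 and 1.12-fold (1.06 to 1.18) for Kit, all within 2-fold. Within the G1, S and G2M calls the ratio of Kit was 0.996, 1.20 and 0.975, so its direction was not kept.

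**Figure D2:**
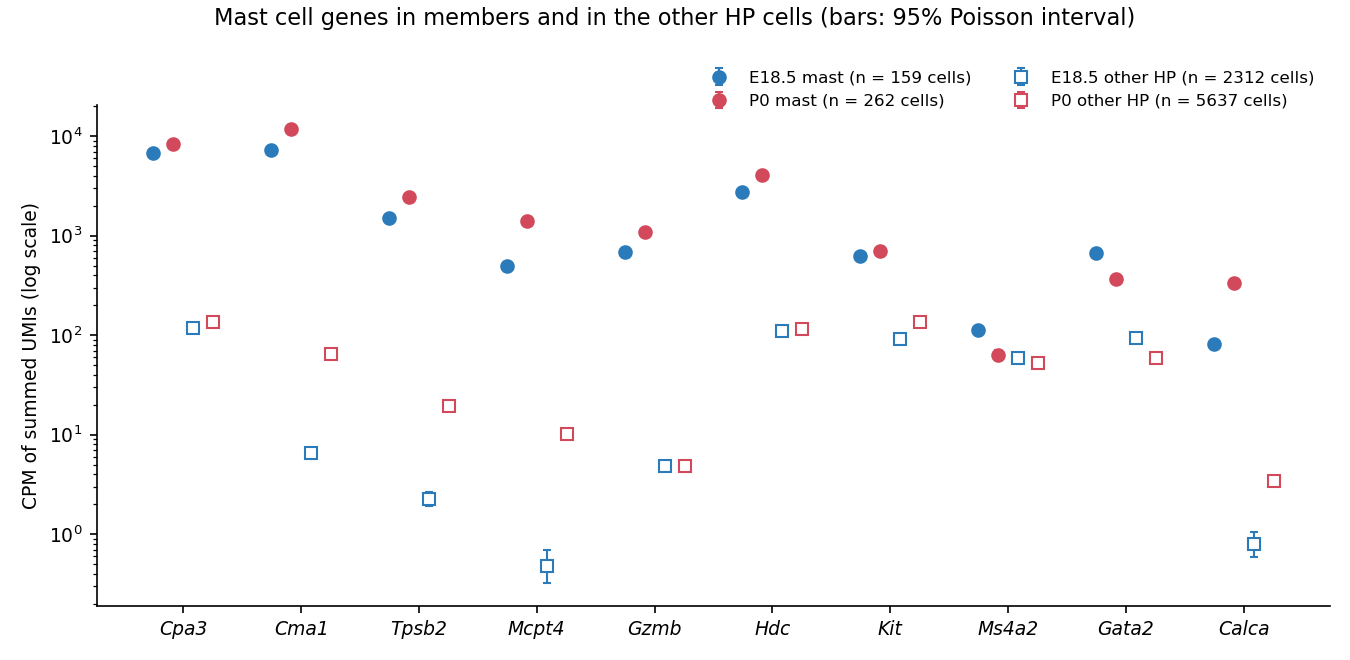
CPM (log axis) of 10 genes in mast cells (filled circles) and in the other HP cells (open squares) at E18.5 (blue) and P0 (red), with 1 library a stage and bars for the exact 95% Poisson interval. Cma1 was at 7304 and 11903 CPM in mast cells and at 6.57 and 64.1 CPM in the other HPs, and Gata2 was at 666 CPM at E18.5 and 366 CPM at P0.

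Not every annotated cell held every marker. Each cell was thinned to 2000 UMIs so that depth was equal. Cpa3 then had a UMI in 91.2% of mast cells at E18.5 and 90.1% at P0, Cma1 in 71.7% and 81.7%, and Kit in 59.1% and 68.7%. At full depth these were 97.5% and 98.5% for Cpa3, 89.3% and 88.2% for Cma1 and 99.4% and 97.7% for Kit. In the B cell clusters, which should lack the proteases, the thinned share for Cpa3 was 1.32% of 151 cells at E18.5 and 2.86% of 384 at P0. For Kit it was 7.28% and 10.7% (42.4% and 46.6% at full depth), which is no background value, since these B cells were sorted as c-Kit+ too. Cma1 had a UMI in 0 of 151 B cells at E18.5 and in 1.30% at P0. At full depth the B cell shares were 10.6% and 9.64% for Cpa3 and 12.6% and 11.7% for Cma1. The B cells had medians of 23243 and 13885.5 UMIs before thinning, close to those of the mast cells.

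Within the proteases, the serine proteases of chromosome 14 are neighbours. Cma1, Mcpt4 and Gzmb lie on the minus strand, Mcpt4 118 kb and Gzmb 318 kb beyond Cma1, whereas Cpa3 lies on chromosome 3. The 250 bases upstream of their first base in RefSeq (GRCm38.p6) are printed 5′ to 3′ along the gene's strand as those of 4 proteases whose levels follow, since the mast cell factor GATA2 is known to bind GATA sequences. Capitals mark GATAA or its reverse complement TTATC. The windows are chr14:55944676-55944925 (Cma1), chr14:56062311-56062560 (Mcpt4), chr14:56262335-56262584 (Gzmb) and chr3:20242182-20242431 (Cpa3).
Cma1: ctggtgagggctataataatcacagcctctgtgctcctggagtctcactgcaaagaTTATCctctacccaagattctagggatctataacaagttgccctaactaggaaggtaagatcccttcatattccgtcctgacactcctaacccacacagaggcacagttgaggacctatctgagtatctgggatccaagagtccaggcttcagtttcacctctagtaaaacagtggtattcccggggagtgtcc
Mcpt4: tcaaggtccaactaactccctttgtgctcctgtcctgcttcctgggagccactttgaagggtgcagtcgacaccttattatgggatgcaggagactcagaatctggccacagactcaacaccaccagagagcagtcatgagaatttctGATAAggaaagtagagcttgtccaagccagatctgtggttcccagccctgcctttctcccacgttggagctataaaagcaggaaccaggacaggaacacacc
Gzmb: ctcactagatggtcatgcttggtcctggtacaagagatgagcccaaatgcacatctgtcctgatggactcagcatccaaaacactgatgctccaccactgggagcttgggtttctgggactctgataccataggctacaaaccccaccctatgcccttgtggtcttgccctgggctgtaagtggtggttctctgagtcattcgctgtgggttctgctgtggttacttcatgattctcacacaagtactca
Cpa3: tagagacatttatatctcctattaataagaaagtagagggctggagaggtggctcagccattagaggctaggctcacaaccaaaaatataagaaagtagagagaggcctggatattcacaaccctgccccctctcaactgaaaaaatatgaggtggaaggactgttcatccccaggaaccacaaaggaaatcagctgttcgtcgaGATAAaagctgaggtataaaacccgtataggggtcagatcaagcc
The letters occur 45 bases before the start of Cpa3, 102 before that of Mcpt4 and 194 before that of Cma1, and not in the Gzmb window. Of the 12 listed proteases, 8 had a window and 5 of these held a match on either strand (Cma1, Mcpt1, Mcpt4, Tpsg1 and Cpa3), beside 25.5% of 27025 genes. A match is a description of the letters and not a binding site.

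Of the proteases compared, 3 were 2-fold higher at P0, among them the chymase Mcpt4, and 2 were 2-fold lower. Both lower values turned on single cells and were not kept without the cell of each stage with the most counts, as given below. The background for these counts was 1.51% of 2983 genes at least 2-fold higher and 0.704% at least 2-fold lower at P0 (45 and 21 genes). A gene entered when the higher stage had 50 CPM and both together had 30 counts. Of 11 measured proteases, 10 could be compared. Those higher were Mcpt4, Ctsg and Tpsab1, those lower Mcpt2 and Mcpt1, and 5 lay between. The median log2 ratio of the 10 was 0.68, against -0.04 over all genes. In the other HPs the ratio of the same genes was higher, with 7 of 10 at least 2-fold and a median log2 ratio of 2.66, at levels such as 0.483 and 10.2 CPM of Mcpt4. Without shared barcodes, 44 genes were 2-fold higher and 18 lower. Summed, the proteases took 17720 CPM at E18.5 and 25813 CPM at P0.

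Mcpt4, the chymase of connective tissue mast cells, was at 494 CPM at E18.5 and 1389 CPM at P0, a ratio of 2.81 (2.67 to 2.96). Its UMIs lay in few cells. After thinning 14.5% of E18.5 and 26.3% of P0 mast cells had one (24.5% and 38.5% at full depth), with none of 151 B cells at E18.5 and 0.521% at P0. The median mast cell had 0 CPM at both stages and the highest 19640 CPM at E18.5 and 100315 CPM at P0. The tryptase gene Tpsb2 was at 1493 and 2421 CPM, a ratio of 1.62 (1.57 to 1.67), with a UMI in 34.6% and 54.6% of thinned cells (52.2% and 66.4% at full depth). The median cell had 30.5 CPM of Tpsb2 at E18.5 and 838 CPM at P0, while the other HPs had 2.26 and 19.3 CPM over all cells. Its neighbour Tpsab1, a related tryptase gene, went from 55.0 to 111 CPM (2.02, 1.72 to 2.38). Whether Tpsab1 shared reads with Tpsb2 was not tested. Tpsg1, a tryptase anchored in the membrane, was at 215 and 192 CPM (0.894).

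Of the other serine proteases, Gzmb, granzyme B of cytotoxic granules, was at 687 and 1086 CPM (1.58, 1.51 to 1.66), and at 4.82 and 4.89 CPM in the other HPs. It had a UMI in 42.1% and 61.5% of thinned mast cells (71.7% and 81.3% at full depth), 0.662% of B cells at E18.5 and none at P0. Ctsg, cathepsin G, which neutrophil precursors also express, was at 95 and 196 CPM (2.06) in mast cells but at 722 and 1056 CPM in the other HPs. Mcpt2 and Mcpt1, chymases of mucosal mast cells, were at 515 and 131 CPM (0.254) and at 66.9 and 31.3 CPM (0.467). Both values turned on single cells. One E18.5 cell held 73.8% of the Mcpt2 UMIs (1596 of 2164) and one held 86.1% of those of Mcpt1. Without the cell of each stage with the most counts, the ratio was 0.908 for Mcpt2 and 2.84 for Mcpt1, so neither was 2-fold lower and Mcpt1 was 2-fold higher.

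**Figure D3:**
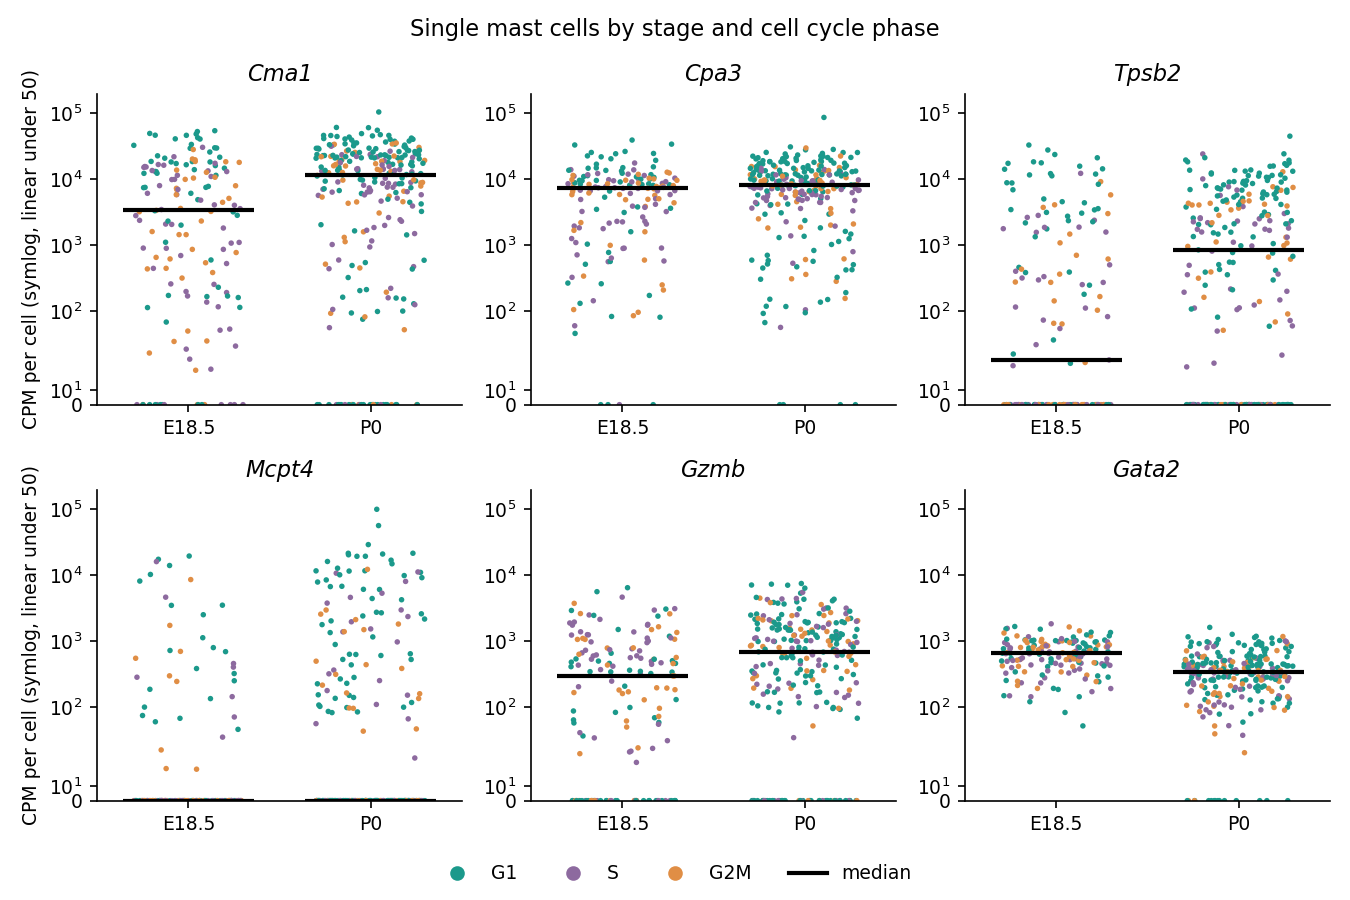
CPM in each mast cell (linear near 0, log above) of 6 genes at E18.5 and P0, coloured by the deposited cell cycle phase, with the median as a bar. The median of Cma1 was 3496 CPM at E18.5 and 11772 CPM at P0, and that of Cpa3 was 7299 and 8342 CPM, while most cells had no UMI of Mcpt4.

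From cell to cell, Cpa3, Tpsb2 and Mcpt4 went with Cma1, and Gzmb did not. Over the 159 E18.5 and the 262 P0 mast cells, Spearman's rho with Cma1 was computed on counts thinned to 2000 UMIs per cell. It was 0.84 and 0.87 for Cpa3, 0.76 and 0.83 for Tpsb2 and 0.46 and 0.55 for Mcpt4. For Hdc it was 0.71 and 0.70. Lmo4, a LIM domain cofactor, had rho of -0.52 and -0.50, and Ifitm1, an interferon-induced membrane protein gene, had -0.38 and -0.36. Gzmb, although a protease of the same chromosome 14 cluster, had -0.16 and -0.20, and Gata2 had 0.07 and -0.02. No correlation was computed for the remaining proteases. The cells of a stage share 1 library, so these values are descriptions.

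Genes of the granule and of amine synthesis lay within 2-fold, with 1 exception, where 2.21% of all genes were past 2-fold. Of 16 measured, 14 could be compared, 1 was 2-fold higher and 13 lay within 2-fold, with a median log2 ratio of 0.24. A ratio above 1 was found for 11 of the 14, beside 44.7% of all 2983 genes. For scale, the median size of the log2 ratio over all genes between the 2 E16.5 libraries was 0.28. Hdc, the enzyme that makes histamine, was at 2775 and 4068 CPM (1.47, 1.43 to 1.5), against 109 and 115 CPM in the other HPs. Srgn, the core protein of serglycin, was at 3187 and 3825 CPM (1.20), and Cd63, a granule membrane protein, at 1060 and 1249 CPM (1.18). Tph1, which starts serotonin synthesis, was at 61.2 and 91.0 CPM (1.49), and Slc18a2, which loads amines into granules, at 131 and 127 CPM (0.974). Rab27b, a GTPase of granule docking, was at 268 and 424 CPM (1.58). Glul, glutamine synthetase, was the gene of the list past 2-fold, at 78.8 and 176 CPM (2.24, 1.96 to 2.56). Slc6a4, the serotonin transporter gene and not in that list, was at 59.6 and 136 CPM (2.29).

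The IgE receptor chains differed from each other. Over 9 compared genes of IgE receptor signalling the median log2 ratio was 0.11 and none was 2-fold apart, which is near the background of 2.21% of all genes and says little of lists this short. Ms4a2, the receptor's beta chain, was at 114 CPM at E18.5 and 63.3 CPM at P0 (0.556, 0.475 to 0.649), with a ratio of 0.882 in the other HPs. Fcer1g, its gamma chain, was at 1163 and 1380 CPM (1.19) in mast cells and had a ratio of 0.471 in the other HPs. The adaptor gene Lat2 was at 141 and 250 CPM (1.77), and the kinase gene Fyn had a ratio of 1.64. None of 17 surface receptor genes was 2-fold apart (median 0.17). Il1rl1, the receptor for IL-33, was at 498 and 479 CPM (0.962), and Csf2rb, the shared beta chain of the IL-3, IL-5 and GM-CSF receptors, had a ratio of 1.54. None of 5 genes of eicosanoid synthesis was 2-fold apart (median 0.21), and Hpgds, which makes prostaglandin D2, had a ratio of 1.65.

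Few cytokine genes reached the level to be compared. None of the 3 was 2-fold apart, beside 2.21% of all genes, which says little of so few. Il4 was at 88.4 and 90.5 CPM, and Tnf, the gene of tumor necrosis factor, at 37.4 and 72.4 CPM (1.94, 1.59 to 2.37). Tgfb1 had a ratio of 0.966. The chemokine Ccl4 did not reach 50 CPM at either stage, at 5.96 and 31.3 CPM.

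Of the transcription factor genes, 1 was 2-fold higher at P0 and none 2-fold lower, beside 1.51% and 0.704% of all genes. These counts say little of a list this short. Of 30 measured, 15 could be compared, of which 12 had a ratio below 1, beside 55.3% of all genes, and the median log2 ratio was -0.34. Gata2, which mast cells need to form and to keep their identity, was at 666 CPM at E18.5 and 366 CPM at P0, a ratio of 0.550 (0.516 to 0.586). It had a UMI in 68.6% and 45.4% of thinned mast cells (100% and 94.3% at full depth), in 16.3% and 10.4% of the other HPs, in 0.662% of B cells at E18.5 and in none at P0. Its ratio in the other HPs was 0.631, so Gata2 was lower at P0 there too. Mitf, a regulator of mast cell proteases and of Kit, was at 105 and 85.7 CPM (0.814). Id2, an inhibitor of helix-loop-helix factors, was at 578 and 384 CPM (0.665), Tal1 had a ratio of 0.592 and Ikzf1 one of 0.691. Cebpb, a leucine zipper factor of myeloid cells, was the one past 2-fold, at 58.8 and 128 CPM (2.18, 1.87 to 2.55), and Spi1, which encodes PU.1, had a ratio of 1.61.

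Of the immediate early genes, Fos was 2-fold higher at P0. All 13 compared had a ratio above 1 in mast cells, beside 44.7% of all genes, with a median log2 ratio of 0.58, while the median in the other HPs was -0.39. Fos, a subunit of the AP-1 factor, was at 129 and 328 CPM (2.54, 2.29 to 2.81), with a ratio of 0.658 in the other HPs. Jun, its partner, was at 692 and 1038 CPM (1.5) and Egr1, a zinc finger factor, at 242 and 397 CPM (1.64), with ratios of 0.763 and 0.635 in the other HPs. Fos and Egr1 also lay apart between the E16.5 libraries of one stage, as given below. Of 5 heat shock genes, 4 had a ratio below 1 in mast cells (median -0.49), beside 55.3% of all genes. Hsp90aa1 was at 1313 and 867 CPM (0.660) and Hspd1 had a ratio of 0.648. All 6 heat shock genes compared in the other HPs had a ratio below 1 there (median -0.17). Over all genes compared in the other HPs, 0.264% of 3029 were 2-fold higher and 1.85% 2-fold lower at P0.

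No cell cycle gene was 2-fold apart, beside 2.21% of all genes, which says little of a list this short. Of 30 compared, 25 had a ratio below 1, beside 55.3% of all genes, and the median log2 ratio was -0.28. Mki67, a proliferation marker, was at 320 and 184 CPM (0.573, 0.523 to 0.627), with a UMI in 27.7% and 14.5% of thinned cells, and Top2a, a topoisomerase of dividing cells, had a ratio of 0.620. In the other HPs the same ratios were 0.875 and 0.957. The deposited phase calls put 37.1% (29.6% to 45.1%) of the 159 E18.5 and 56.1% (49.9% to 62.2%) of the 262 P0 mast cells in G1, beside 33.7% and 12.7% of the other HPs. The calls rest on unequal depth, since G1 mast cells had medians of 16749 and 10338 UMIs, and they were not remade at equal depth.

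Levels of several proteases differed between the phases, so ratios were also taken within each. Cma1 was at 13573 CPM in G1, 5214 in S and 5492 in G2M at E18.5, and at 16996, 7968 and 9526 CPM at P0. G1 cells thus had the most Cma1 at both stages, and more of the P0 cells were in G1. This did not hold for Gzmb at E18.5, at 574 CPM in G1, 811 in S and 612 in G2M. Within G1, S and G2M the P0 to E18.5 ratio of Cma1 was 1.25, 1.53 and 1.73, that of Cpa3 1.07, 1.18 and 1.18, and that of Hdc 1.35, 1.16 and 1.64. Tpsb2 did not keep its direction, with 0.945 in G1 and 2.28 and 2.22 in S and G2M. Mcpt4 had ratios of 2.54, 1.85 and 1.61, and Gzmb of 2.07, 1.19 and 1.78. For Gata2 they were 0.608, 0.568 and 0.424, below 1 in each. All 45 genes that were 2-fold higher had a ratio above 1 in every phase, and of the 21 lower genes 20, 19 and 18 had one below 1 in G1, S and G2M. Their choice on the same cells favours this.

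**Figure D4:**
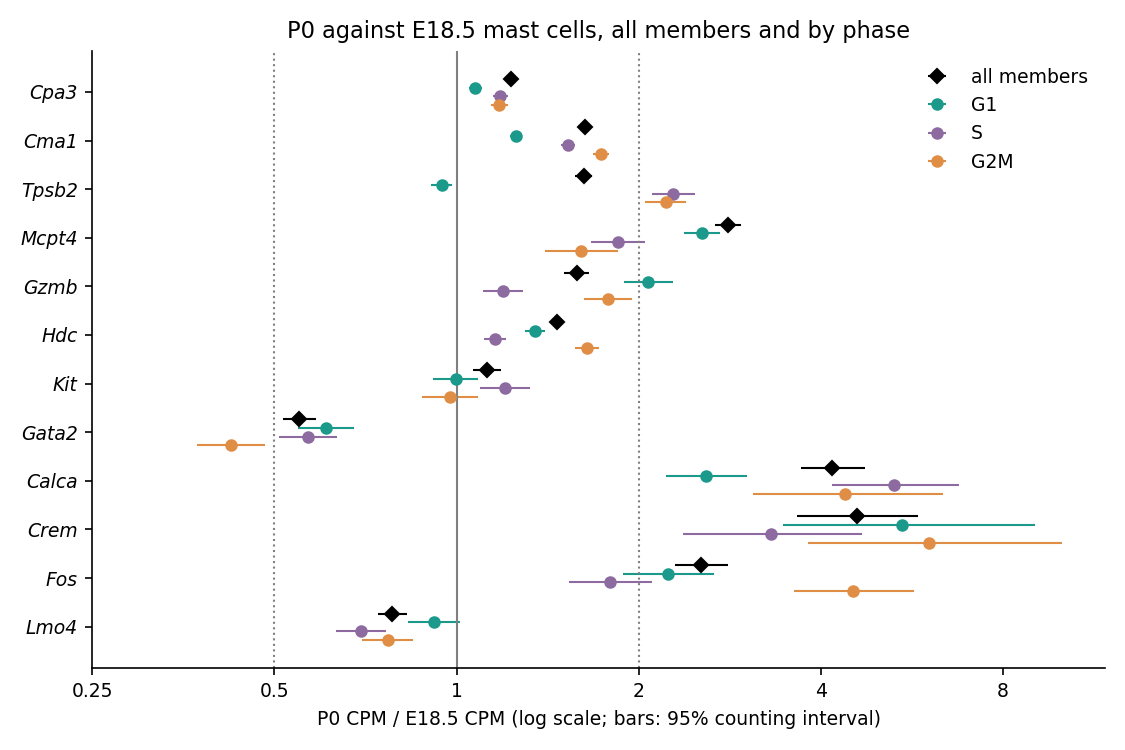
The P0 to E18.5 ratio of CPM in mast cells (log axis) for 12 genes, over all cells and within the G1, S and G2M calls, with the exact 95% interval. Cma1 lay above 1 in each phase (1.25, 1.53, 1.73), Gata2 below 1 in each (0.608, 0.568, 0.424), and Tpsb2 on both sides of 1.

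By size alone, genes outside the protease families led the list. Of genes from 100 CPM and 50 counts, Crem, a repressor and activator of cAMP-responsive genes, had the highest ratio, at 22.4 CPM at E18.5 and 103 CPM at P0 (4.59, 3.66 to 5.80). Calca, which encodes calcitonin and the neuropeptide CGRP, was at 80.5 and 337 CPM (4.18, 3.71 to 4.73), and in the other HPs it was at 0.799 and 3.42 CPM (4.28). Calca had a UMI in 8.81% and 27.9% of thinned mast cells, in none of 151 B cells at E18.5 and in 0.260% at P0. Cirbp, an RNA-binding protein induced by cold, was at 48.1 and 188 CPM (3.90), and 2.66-fold in the other HPs. Socs2, a suppressor of cytokine signalling, was at 43.1 and 122 CPM (2.83), Ctla2a, a cathepsin inhibitor, at 189 and 501 CPM (2.66), and Tns1, an adhesion protein, at 39.1 and 102 CPM (2.62). Of the 45 genes, 7 had a ratio of 2 or more in the other HPs with no minimum level asked there, among them Cirbp and, at the low levels given above, Calca and Mcpt4. Direction was shared more widely, with 33 of the 45 above 1 in the other HPs and 18 of the 21 lower genes below 1. The ratios of mast cells and of other HPs come from the same pair of libraries.

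On the lower side the genes with the lowest ratios were as follows, and a shared role was not tested. Nop56, a nucleolar protein of snoRNPs, was at 205 and 103 CPM (0.5, just short of the 2-fold limit), and Nolc1, a nucleolar chaperone, at 160 and 80.1 CPM (0.499). Ddx18, a helicase of ribosome assembly, was at 128 and 62.8 CPM (0.489), and Abce1, which recycles ribosomes, at 109 and 52.9 CPM (0.484). Cbfa2t3, a corepressor in blood progenitors, had the lowest ratio after Mcpt2, at 150 and 57.4 CPM (0.383). The mitochondrial leucyl-tRNA synthetase gene Lars2 was at 147 and 62.5 CPM (0.427), and Edem3, of protein quality control in the endoplasmic reticulum, at 122 and 57.2 CPM (0.467). The gene AA467197, picked after its values were seen, had 25 counts in 10 cells at E18.5 and 341 counts in 102 cells at P0 (5.95 and 86.7 CPM), a ratio of 14.6 (9.69 to 22.8), and its strongest P0 cell held 6.45% of the counts.

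Markers of other cell types moved with the stage in part. Over 12 neutrophil markers the summed level in mast cells was 53.1 CPM at E18.5 and 245 CPM at P0. Only Mpo and Prtn3, granule enzymes of neutrophil precursors, reached the level to be compared. Mpo was at 17.4 and 95.1 CPM (5.47) and Prtn3 at 12.1 and 93.0 CPM (7.66). Both reached 50 CPM at P0 alone. At their E18.5 levels, any gene that passed the filter had to be 2-fold higher, so this call is no result, beside 1.51% of all genes. At P0 a single cell held 20.9% of the Mpo UMIs and 5 cells held 55.1%. Of the basophil markers, 6 markers could be compared, all with a ratio above 1, beside 44.7% of all genes. Of these Prss34 was at 65.0 and 134 CPM (2.06), Cyp11a1 at 191 and 382 CPM (2.00) and Mcpt8 at 214 and 335 CPM (1.57). The list summed to 2300 and 3715 CPM, of which Ifitm1 alone, also in the list, gave 1675 and 2651 CPM. In the other HPs the list summed to 1755 and 904 CPM, with a median log2 ratio of -1.18. Macrophage markers went the other way, from 1238 to 1053 CPM in mast cells and from 3621 to 1257 CPM in the other HPs, with all 6 compared genes below 1. Stromal markers summed to 30.5 and 103 CPM, and none could be compared. The 12 mast cell markers themselves took 20900 CPM at E18.5 and 29930 CPM at P0, against 524 and 616 CPM in the other HPs. The part of such transcripts in the ratios was not tested.

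Few genes of the smaller lists were past 2-fold, beside 2.21% of all genes, which says little of lists this short. None of 12 glycolysis genes (median 0.09), 6 class I antigen presentation genes (median 0.36), 6 interferon-stimulated genes (median 0.30) or 5 fetal stage genes (median -0.09) was 2-fold apart. All 6 class I genes had a ratio above 1, beside 44.7% of all genes, with B2m, the light chain, at 510 and 702 CPM (1.38). Ifitm1 was at 1675 and 2651 CPM and Ifitm2 at 1569 and 2474 CPM (1.58 each), while Ifitm1 had 0.443 in the other HPs. H19, a noncoding RNA of fetal tissue, was at 126 and 68.4 CPM (0.545), and 0.312 in the other HPs. Of 5 stem and progenitor markers, Ctla2a alone passed 2-fold.

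How far apart 2 libraries of one stage can lie was seen at E16.5, the stage with 2 HP libraries. There 2.09% of 2824 genes were 2-fold higher and 0.637% 2-fold lower in mast cells of the first library than of the second, 2.73% in all, against 2.21% of 2983 between P0 and E18.5. For 95% of genes the fold was within 1.75 at E16.5 and within 1.68 between P0 and E18.5. The share of 2-fold genes between stages was thus no larger than that between libraries of one stage. Which of these libraries comes first is arbitrary, so only the size of a difference is read. Of the first library's 259 mast cells 179 shared a barcode. Without shared barcodes, 80 and 1791 mast cells were left, 8.03% of 2803 genes were at least 2-fold apart, and 95% of genes were within 2.18-fold. Among the 45 genes higher at P0, 21 could be compared in the E16.5 pair and 1 was 2-fold apart there, or 4 of 23 without shared barcodes. Among the 21 lower genes it was 1 of 12, or 2 of 10. Mcpt4 was at 1308 and 1618 CPM in the E16.5 libraries (0.808), Gata2 at 546 and 499 CPM (1.1), and Calca at 93.2 and 55.3 CPM (1.69). Without shared barcodes these ratios were 1.42, 1.03 and 5.94, so Calca was then further apart between libraries of one stage than between E18.5 and P0. Fos was at 37.7 and 105 CPM (0.358) and Egr1 at 17.9 and 109 CPM (0.165), or 0.422 and 0.171 without shared barcodes. Egr1 thus differed more between libraries of one stage than between E18.5 and P0, and Fos by a similar factor.

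The E16.5 mast cells also had a different protease make-up. Cma1 was at 27133 and 35930 CPM in the E16.5 libraries, Cpa3 at 14249 and 18171 CPM and Tpsb2 at 9275 and 11106 CPM, each above both later stages. Gzmb was at 13.4 and 14.4 CPM at E16.5, against 687 and 1086 CPM at E18.5 and P0. Without shared barcodes the first E16.5 library had 38284 CPM of Cma1, 19147 of Cpa3, 13923 of Tpsb2 and 2.87 of Gzmb (4 UMIs). The mast-named adult cells under 2000 UMIs had 19107 CPM of Cma1, between P0 and E16.5, and 8.07 CPM of Gzmb (2 UMIs, 0.977 to 29.1), and 255 of these 315 cells shared a barcode with the first E16.5 library. At P0, the 208 Mast4 cells with a shared barcode had 14315 CPM of Cma1 and 7.46 CPM of Gzmb (1 UMI), whereas Mast3 without the shared barcode had 11914 and 1092 CPM.

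Against the other HPs of the same library, 223 of 3231 genes (6.9%) were 2-fold higher and 172 (5.32%) 2-fold lower in mast cells at E18.5, and 337 (10.4%) and 267 (8.21%) of 3254 at P0. When every E18.5 cell had equal weight, the counts were 203 and 306, so which side was larger depended on the summing. Without shared barcodes, which 13.0% of the other E18.5 HPs had, they were 213 and 193, and 337 and 265 at P0. Of the 11 mast cell markers compared, 10 were 2-fold higher at both stages. Cma1 was 1111-fold higher at E18.5 and 186-fold at P0, Tpsb2 660-fold and 126-fold, Mcpt4 1024-fold and 137-fold, and Gzmb 142-fold and 222-fold. For the first 3 the fold was smaller at P0, where the other HPs had 64.1 CPM of Cma1 against 6.57 CPM at E18.5. In P0 Mono1 and Mono2, 14 of 216 and 12 of 111 cells had at least 1000 CPM of Cma1, the median cell had 0, and 5 cells held 64.3% and 60.9% of the Cma1 UMIs. Smpx, a small muscle protein, was 731-fold and 212-fold higher in mast cells. The amine oxidase Maob was 167-fold higher at P0.

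The shares of all genes 2-fold higher in mast cells, 6.9% at E18.5 and 10.4% at P0, stand beside the counts that follow. Among the other lists, 8 of 13 granule genes were 2-fold higher than in other HPs at E18.5 and 11 of 14 at P0, none lower. Surface receptor genes were 2-fold higher in 10 of 16 and 14 of 17 cases. Gata2 was 7.12-fold and 6.21-fold higher and Hdc 25.4-fold and 35.3-fold. Of immediate early genes, 10 of 13 were 2-fold higher at P0. At E18.5, 1 of 14 was higher and 2 lower, which says little of a list this short beside 6.9% and 5.32% of all genes. Genes of neutrophils were far lower in mast cells. Every neutrophil marker compared was 2-fold lower, 10 at E18.5 and 8 at P0, beside 5.32% and 8.21% of all genes. The list summed to 53.1 and 245 CPM in mast cells and to 6516 and 6625 CPM in the other HPs. Such genes passed the filter through the other HPs, where they are high, so this outcome was largely set in advance. S100a8, a subunit of calprotectin, was at 0.00555 and 0.0154 of its level in the other HPs, and Elane, neutrophil elastase, at 0.00481 and 0.0204. Prg2, the major basic protein of eosinophils, was at 0.0316 at P0.

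Surface proteins were read with oligo-tagged antibodies, of which those with a median count of 0 over all HP cells of a library are not used here. Ly6AE (Sca-1) had a median of 3 counts in mast cells at E18.5 and 2 at P0, CD150 of 2 and 0, and CD135 of 1 at E18.5, too few to compare. CD48, a ligand of leukocytes that mast cells carry, had a median of 141 counts in mast cells and 129 in the other HPs at E18.5, and of 80.5 and 114 at P0. On a centred log ratio scale the medians were 1.39 and 1.32 at E18.5 and 0.651 and 0.832 at P0. The P0 difference of -0.18 became 0.0302 when counts were taken per 1000 antibody counts of the cell on a log2 scale, so no direction is given. The Cd48 transcript was at 86.0 and 80.6 CPM in mast cells.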

How the data were processed

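RNA and antibody tags of single bone marrow cells were read by 10x Genomics 3′ v3.1 CITE-seq. The authors deposited raw UMI counts per gene and per antibody and a cell table with cluster names, cell cycle phases and the mitochondrial fraction of each cell. Per the labels, Cell Ranger 3.1.0, R 4.0 and Seurat 3.1.5 were used with mm10 (GRCm38). The authors had removed cells of the highest gene and UMI numbers as putative doublets, and no doublet caller was run here. Cell table columns not used here numbered 10. Counts were summed over the cells of each library and group and scaled to CPM (Python 3.11.15, numpy 2.4.6, pandas 2.3.3, scipy 1.17.1). Intervals are exact Poisson (CPM), conditional binomial (ratios) and Clopper-Pearson (shares), at 95%, for counting error only. A 2-fold gene needed 50 CPM in the higher group and 30 counts over both. No p-value was computed, since each stage was 1 library. Thinning drew 2000 UMIs per cell. Named genes are those of 28 lists (411 of 415 genes measured) and, per comparison, the 8 largest ratios each way from 100 CPM and 50 counts, without mitochondrial, ribosomal protein genes and Gm42418. AA467197 is named outside this rule, after its values were seen. The cells and the lists were chosen with earlier results of these data known. Counts of 2-fold genes were planned for the adult too and are not read, because 6 cells of mixed kind made up that group. The counting scheme was tested on simulated data. Alternatives changed the UMI minimum, weighting, denominator, cluster choice, filters, antibody scale, shared barcodes (also in the E16.5 pair), phase and strongest cell, and the last 3 were chosen after seeing the data. Figures were drawn with matplotlib 3.10.9.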

Additional observations from a re-analysis of the deposited data

How the results depend on the processing

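No paired analysis was possible because each stage was 1 library. The E18.5 share of mast cells stayed within its interval under every alternative run. The P0 share was 8.60% with no UMI minimum, and the adult share 1.39% from 1000 UMIs, 0% from 4000 UMIs and 5.36% with no minimum. Between P0 and E18.5, 2-fold genes numbered 45 higher and 21 lower. They numbered 23 and 7 from 100 CPM, 523 and 463 with no CPM filter, 62 and 36 with mitochondrial, ribosomal protein and hemoglobin genes and Gm42418 out of the denominator, 51 and 42 in G1 cells and 46 and 8 in S and G2M cells. In G1 cells 23 of the 45 and 7 of the 21 were called again. Without shared barcodes the counts were 44 and 18, of which 43 and 17 were among the original ones. Directions turned in G1 cells for Kit (log2 ratio -0.0052), Tpsb2 (-0.082), Tph1 (-0.17) and Top2a (0.67), and in S and G2M cells for Mcpt2 (1.37) and Mcpt1 (1.44). Without the strongest cell of each stage Mcpt1 had 1.51. Apart from filters and weights that change which genes or cells count, the cause was not tested. In the E16.5 library pair, the genes at least 2-fold apart numbered 77, and 225 without shared barcodes. Of the values of single genes between stages, 510 held within their interval, 94 moved and these 7 turned.

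Mast cells against other HPs gave 113 higher and 83 lower (E18.5) and 186 and 116 (P0) from 100 CPM, and 1265 and 1908 and 1990 and 1855 with no CPM filter. The lower count was 306 at E18.5 with equal weight per cell and 401 at P0 with the smaller denominator. No single gene named there turned (137 held, 23 moved). The CD48 difference was 0.0345 at E18.5 and 0.0302 at P0 on log2 counts per 1000, against 0.07 and -0.18 as centred log ratios, and in the adult -0.47 without shared barcodes against -0.11. Depth limits the adult most, where 3 counts are 198 CPM. With 1 library a stage, stage and library cannot be told apart.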
